A study of Mus musculus with 6 samples.

Results

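The Sonic hedgehog pathway genes described here are the ligand gene Shh, the receptor genes Ptch1, Boc, Cdon and Gas1, the antagonist gene Hhip, the transducer gene Smo and the transcription factor genes Gli1, Gli2 and Gli3. They were chosen by name, and their probe sets are all those that the platform annotation assigns to exactly 1 of these symbols. All 10 genes had a probe set, 26 in total, out of 18193 named genes and 45037 non-control probe sets on the array. Expression was measured on Affymetrix Mouse MOE430 2.0 arrays in mouse embryos at E13.5 (E for embryonic day) that lacked the transcription factor gene Olig2, labelled Olig2 ko (-/-), and in Olig2 wt (+/+) embryos. The knockout group held replicates 2, 4 and 5 and the wild-type group replicates 1, 4 and 5, each a pool of RNA from 3 brains. The study design states 5 replicates per genotype, while the series holds these 6 arrays, and all of them were used. The tissue is called ventral forebrain in the design text and ventral telencephalon in the labels, and the sources used here do not give the Olig2 allele or say whether pools shared a litter.

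Sonic hedgehog is a secreted protein that patterns the ventral neural tube, and in the forebrain it is made in the medial ganglionic eminence and its surroundings, in the hypothalamus and in the zona limitans between thalamus and prethalamus. It binds the receptor Ptch1, which lifts the inhibition that Ptch1 exerts on the membrane protein Smo, and Smo then changes the balance of Gli activators and repressors in the nucleus. Ptch1, Gli1 and Hhip are themselves direct targets of the pathway, so their transcripts are commonly used as readouts of its activity, while Olig2 is a gene that hedgehog signalling can induce in ventral progenitors.

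Values are log2 expression per probe set, on which 1 unit is a doubling. A probe set is called kept here if it exceeded the median of its own array on 3 or more of the 6 arrays, whichever genotype they were. Array medians lay between 3.14 and 3.19, and 33.2% to 33.7% of the values on an array lay within 0.03 of the lowest one, the array floor. Of the 26 probe sets of the pathway genes, 20 were kept, and they covered 9 of the 10 genes. Gli1 had no kept probe set. Levels of different probe sets cannot be ranked against each other, so the genotypes are compared at the same probe sets. Where levels of several genes are printed together, they are a description and no ranking. RNA of a whole dissected region was measured, so fewer cells of a type and less RNA per cell cannot be told apart. Limma's p-values weigh each difference against the spread between pools of the same genotype. The labels do not say that pools were independent litters, and shared litters could make these p-values misleading. With only 6 pools the precision of every value is limited.

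Olig2, the targeted gene, read 7.48, 7.53 and 7.76 on the knockout arrays, against 8.20, 8.22 and 8.42 on the wild-type arrays. The knockout arrays were all below the wild-type arrays, with a log2 difference of -0.69 (SE 0.11, limma's adjusted p = 0.511). Olig1, its neighbour, read 8.47, 8.55 and 8.02 on the knockout arrays and 7.17, 6.48 and 6.30 on the wild-type arrays. The position of the Olig2 probe set relative to the deletion is not given in those sources, and its signal is no measure of functional transcript.

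None of the pathway genes passed the test between the genotypes. At the brightest kept probe set of each gene, 3 genes read higher and 6 lower in the knockout, with a median log2 difference of -0.046 and a range of -0.41 to 0.18. The median over all 10630 kept genes was -0.0015 on the same scale. No kept probe set of any gene had an adjusted p below 0.05 in limma (0% of 22565, smallest adjusted p 0.511). At an unadjusted p below 0.05 there were 2 of the 20 pathway probe sets (10%), against 9.4% of all kept probe sets. Both were lower in the knockout, and 4.42% of all kept probe sets had such a p and were lower. In 3 of the 20 (15%) the groups were apart, that is, every knockout array lay on one side of every wild-type array, against 16.2% of all kept probe sets. One of these read higher (8.96% of all did) and the others lower (7.25%). Without regard to direction, both shares of the pathway probe sets were near those of all kept probe sets. The share with an unadjusted p below 0.05 and a lower level was larger than among all kept probe sets, and rests on 2 probe sets.

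**Figure D1:**
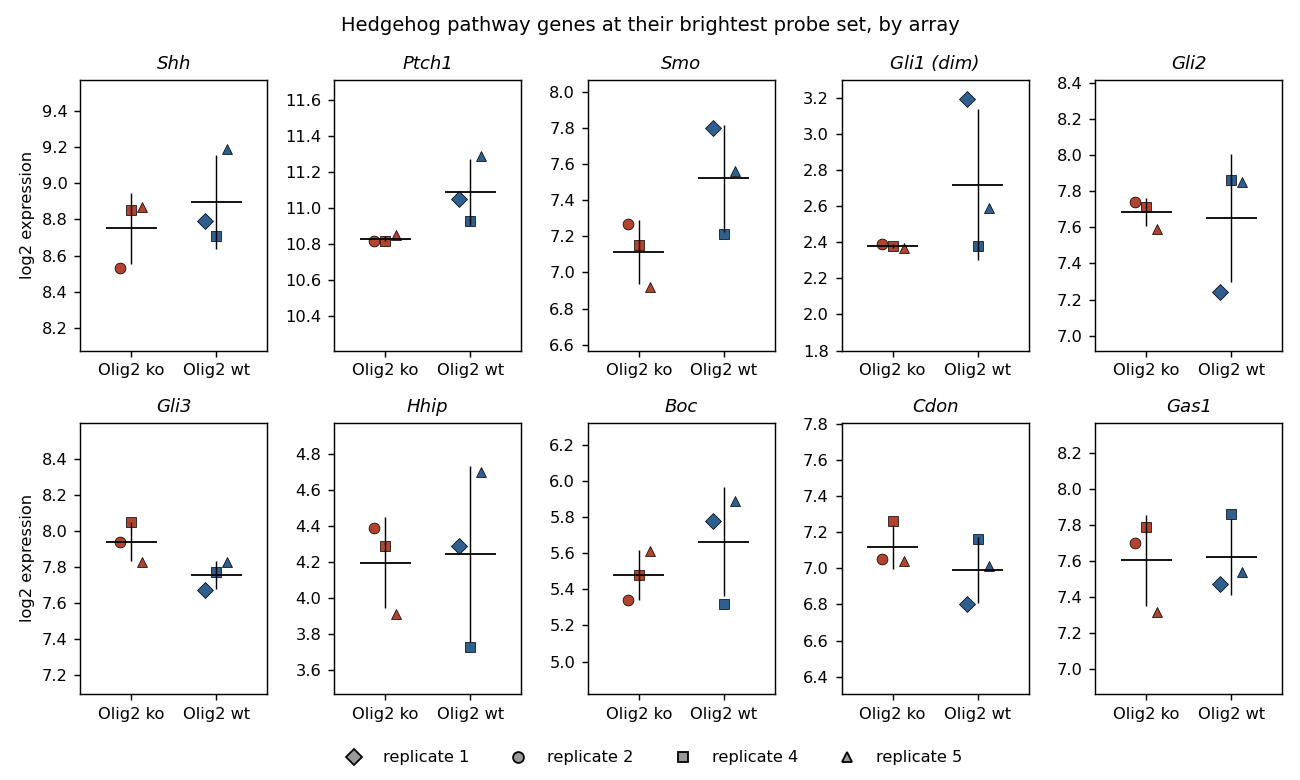
Log2 expression (y axis, the same span in each panel) of the 10 hedgehog pathway genes at their brightest probe set on the Olig2 ko arrays (red, left) and the Olig2 wt arrays (blue, right). Points are arrays with the shape giving the replicate number, horizontal lines are means and vertical lines SD (n = 3 each). The groups are apart for Ptch1, lower in the knockout, and for Gli3, higher in the knockout, and Gli1 lies near the array floor on most arrays.

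Shh, the ligand, read 8.53, 8.85 and 8.87 in the knockout, against 8.79, 8.71 and 9.19 in the wild type at its brightest probe set, 1436869_at. Its lowest array was a knockout array and its highest a wild-type array, and the groups overlapped. The means were 8.75 ± 0.19 in knockout pools and 8.90 ± 0.26 in wild-type pools (SD, n = 3 each), a log2 difference of -0.15 with a 95% interval from -0.55 to 0.26 (limma's adjusted p = 0.703). The second probe set, 1427571_at, was dimmer and went the other way. It read 4.30, 4.61 and 4.54 in the knockout, against 3.67, 4.50 and 4.36 in the wild type, a log2 difference of 0.31 (95% interval -0.27 to 0.89). Its low value on wild-type replicate 1 stands apart from the other 5 arrays. The difference at the brightest probe set was 0.00021 without wild-type replicate 5, the array of highest Shh, and the mean over both probe sets was 0.081 higher in the knockout. The direction for Shh is therefore not settled by these arrays.

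Ptch1, the receptor that hedgehog proteins bind and a target gene of the pathway, was read brightest at probe set 1428853_at. There it measured 10.82, 10.82 and 10.85 in the knockout, against 11.05, 10.93 and 11.29 in the wild type. The knockout arrays lay within 0.03 of each other, below every wild-type array. The means were 10.83 ± 0.014 in knockout pools and 11.09 ± 0.18 in wild-type pools (SD, n = 3 each), a log2 difference of -0.26 (SE 0.11, 95% interval -0.52 to -0.0019) or a level 1.20-fold lower in the knockout. Limma's unadjusted p was 0.0488 and its adjusted p 0.511, so the gene did not pass. Without wild-type replicate 5 the difference was -0.16 (limma's adjusted p = 0.577), and without wild-type replicate 4 it was -0.34 (0.262). A dimmer kept probe set, 1450824_at, read 3.96, 3.97 and 4.20 in the knockout, against 3.68, 3.96 and 3.96 in the wild type, so it was 0.18 higher with overlapping groups. On 3 of the 6 arrays this probe set held the same value to 6 decimals, and averaging it with the bright one left a difference of -0.041. The third probe set, 1439663_at, was not kept, since it lay above the array median on 1 array. It read 2.88, 2.71 and 2.71 in the knockout, against 3.01, 3.27 and 2.92 in the wild type, with every knockout array lower and a log2 difference of -0.30 near the array floor. The mean over all 3 Ptch1 probe sets differed by -0.13.

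Boc, Cdon and Gas1 encode cell surface proteins that bind hedgehog ligands and help Ptch1 to receive them, and none of them separated the genotypes. Boc read 5.34, 5.48 and 5.61 in the knockout, against 5.78, 5.32 and 5.89 in the wild type. That is a log2 difference of -0.19 (95% interval -0.60 to 0.23, limma's adjusted p = 0.642), in which wild-type replicate 4 lay below all knockout arrays and the other wild-type arrays above them. Without that array the Boc difference was -0.36 (limma's adjusted p = 0.277). A dimmer Boc probe set differed by -0.05, and another was not kept.

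Cdon read 7.05, 7.26 and 7.04 in the knockout, against 6.80, 7.16 and 7.01 in the wild type. It was 0.13 higher on the log2 scale (95% interval -0.17 to 0.42, limma's adjusted p = 0.651), with groups that overlapped. Its lowest array was wild-type replicate 1, and without it the difference was 0.03. Gas1 read 7.70, 7.79 and 7.32 in the knockout, against 7.47, 7.86 and 7.54 in the wild type, a log2 difference of -0.02 (95% interval -0.43 to 0.39, limma's adjusted p = 0.970). A dimmer Gas1 probe set, 1448494_at, differed by -0.26 (95% interval -0.79 to 0.28).

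Hhip, a membrane-anchored antagonist that binds hedgehog ligands and a target of the pathway, was dim at all 4 of its kept probe sets. The brightest, 1437933_at, read 4.39, 4.29 and 3.91 in the knockout, against 4.29, 3.73 and 4.70 in the wild type. The wild-type arrays spanned both ends of the range. The log2 difference was -0.05 with the widest interval among the 9 genes, from -0.71 to 0.62 (limma's adjusted p = 0.953). The other kept probe sets differed by 0.31, -0.01 and 0.47, with limma's adjusted p between 0.512 and 0.993. The largest of these rested on wild-type replicate 1, which read 2.31 at 1421426_at while the other 5 arrays read 3.27 to 3.55.

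Smo, the transmembrane transducer that Ptch1 holds in check, had the largest difference among the brightest probe sets. At 1427049_s_at it read 7.27, 7.15 and 6.92 in the knockout, against 7.80, 7.21 and 7.56 in the wild type. The groups overlapped by 1 array on each side, since knockout replicate 2 lay above wild-type replicate 4. The means were 7.11 ± 0.18 in knockout pools and 7.52 ± 0.30 in wild-type pools (SD, n = 3 each), a log2 difference of -0.41 (SE 0.18, 95% interval -0.84 to 0.03) or a level 1.33-fold lower in the knockout, with limma's adjusted p = 0.511. The second kept probe set, 1427048_at, which the annotation derives from the same source sequence, read 6.58, 6.58 and 6.43 in the knockout, against 7.02, 6.56 and 6.76 in the wild type. It differed by -0.25 (95% interval -0.57 to 0.08) and ordered the wild-type arrays in the same way. The 2 probe sets share their source sequence and are not separate evidence. The suffix _s of the brighter one marks probes that match more than 1 transcript on the array's design. Without wild-type replicate 1, the highest array, the Smo difference was -0.27 (limma's adjusted p = 0.748), and without wild-type replicate 4 it was -0.56 (0.246). The remaining Smo probe set held one value at the array floor on 5 of 6 arrays.

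Gli1 encodes an activator that is transcribed in response to hedgehog signalling, and its single probe set, 1449058_at, was too dim to compare. It read 2.39, 2.38 and 2.37 in the knockout, against 3.19, 2.38 and 2.59 in the wild type. Wild-type replicate 1 was the only array on which it passed the array's own median, and the groups overlapped. No fold is given for values this close to the lowest value of the arrays. A dim probe set does not by itself show that a transcript was missing. Nkx2-1, a factor that defines the medial ganglionic eminence, read between 2.69 and 3.36 at its only probe set. Values of other genes listed for that region follow, without a ranking against it. Lhx6 and Lhx8, which mark its neurons, read 8.22 to 9.10 and 9.91 to 10.25, and Sox6 read 8.39 to 8.70. Gbx1 and Lmo3 read 4.55 to 5.48 and 4.79 to 5.16, and Nkx6-2 read 2.33 to 2.34, near the floor.

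Gli2, which encodes the main activator of the early hedgehog response in mice, gave different answers at its 2 probe sets, although the annotation derives both from the same source sequence. The brighter one, 1459211_at, read 7.74, 7.71 and 7.59 in the knockout, against 7.24, 7.86 and 7.85 in the wild type, a log2 difference of 0.03 (95% interval -0.42 to 0.48, limma's adjusted p = 0.951). Its knockout arrays lay between the wild-type arrays, and without wild-type replicate 1 the difference was -0.17. The dimmer one, 1446086_s_at, read 4.50, 4.62 and 4.74 in the knockout, against 4.92, 5.12 and 5.14 in the wild type. Every knockout array was below every wild-type array there, by -0.44 on the log2 scale (SE 0.10, 95% interval -0.69 to -0.19).

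This was the lowest p of any pathway probe set, with an unadjusted p of 0.00507 and an adjusted p of 0.511 in limma. Its direction held in all 14 alternatives that included it, from -0.51 to -0.35. As at the brightest Smo probe set, the suffix _s marks probes that match more than 1 transcript on the array's design. The level of 1446086_s_at relative to 1459211_at on the same array was -3.25, -3.09 and -2.85 in the knockout, against -2.32, -2.73 and -2.71 in the wild type. All 3 knockout arrays were below all 3 wild-type arrays, and the difference of -0.47 had an exact permutation p of 0.1, two-sided, which is the smallest that 3 against 3 can give (0.4 after Benjamini-Hochberg adjustment over the 8 genes with such a pair). The same exact p was reached by Ptch1, whose dim probe set was 0.44 higher relative to its bright one in the knockout. These pairs were compared after their values were seen.

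Gli3, whose protein is the main Gli repressor and holds ventral fates back where hedgehog is low, was the only one of the 9 genes with every knockout array above every wild-type array at its brightest probe set. At 1456067_at it read 7.94, 8.05 and 7.83 in the knockout, against 7.67, 7.77 and 7.83 in the wild type, and the lowest knockout and the highest wild-type array were nearly equal. The log2 difference was 0.18 (SE 0.09, 95% interval -0.03 to 0.39), a 1.14-fold higher level, with limma's adjusted p = 0.512. The next probe set, 1455154_at, read 7.44, 7.62 and 7.18 in the knockout, against 7.31, 7.30 and 7.50 in the wild type, a log2 difference of 0.04 with overlapping groups. The third, 1450525_at, held the same value to 6 decimals on 4 arrays and differed by 0.01.

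**Figure D2:**
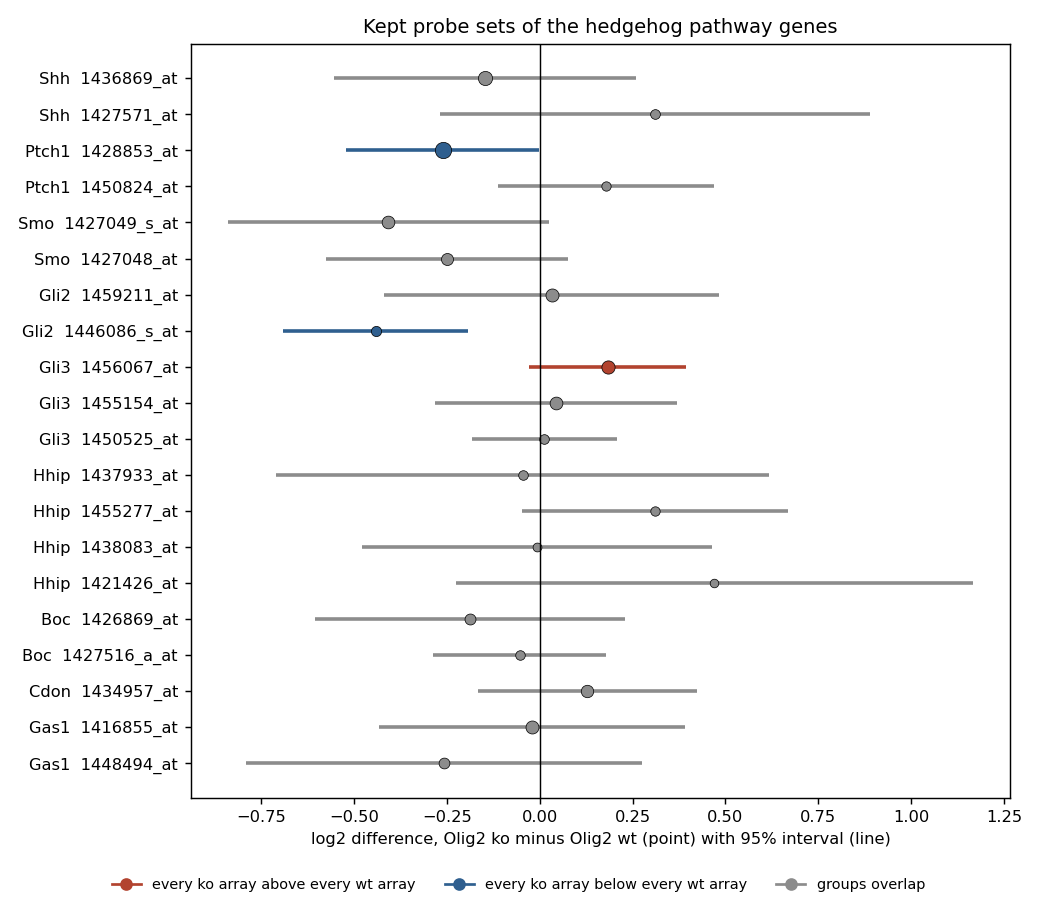
Log2 difference between Olig2 ko and Olig2 wt arrays (x axis, points) with its 95% interval from limma (lines) for the 20 kept probe sets of the hedgehog pathway genes (y axis). A larger point marks a brighter probe set. Intervals exclude 0 for Ptch1 1428853_at and Gli2 1446086_s_at, without adjustment for multiple tests, and probe sets of 1 gene often lie on both sides of 0.

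Probe sets of the same gene often disagreed. Of the 8 genes with more than 1 kept probe set, 4 had kept probe sets on both sides of 0. These were Shh, Ptch1, Gli2 and Hhip. For Smo, Boc and Gas1 all kept probe sets were lower in the knockout, and for Gli3 all were higher, none of them past the threshold. Values identical to 6 decimals on at least 2 arrays occurred at 5 of the 20 kept and at all 6 of the other pathway probe sets, against 13.9% of all kept probe sets.

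Several differences moved with single arrays of either genotype. Knockout replicate 5 was the lowest array of its genotype for 6 of the 9 genes, and without it Gas1 turned to 0.12 and Hhip to 0.098. Without knockout replicate 2 the Shh difference was -0.035. Wild-type replicate 5 was the highest array of its genotype for 5 of the 9 genes and the lowest for none, and wild-type replicate 4 was the lowest for 5. Without wild-type replicate 4, 5 of the 20 pathway probe sets had an unadjusted p below 0.05 in limma, all lower in the knockout (1 of Ptch1, both of Smo, 1 of Boc and 1 of Gli2). That was 25% of them, against 15.5% of all kept probe sets in the same fit, and no adjusted p was below 0.246. Without wild-type replicate 1 the count was 1 of 20 (5%, against 6.21%).

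**Figure D3:**
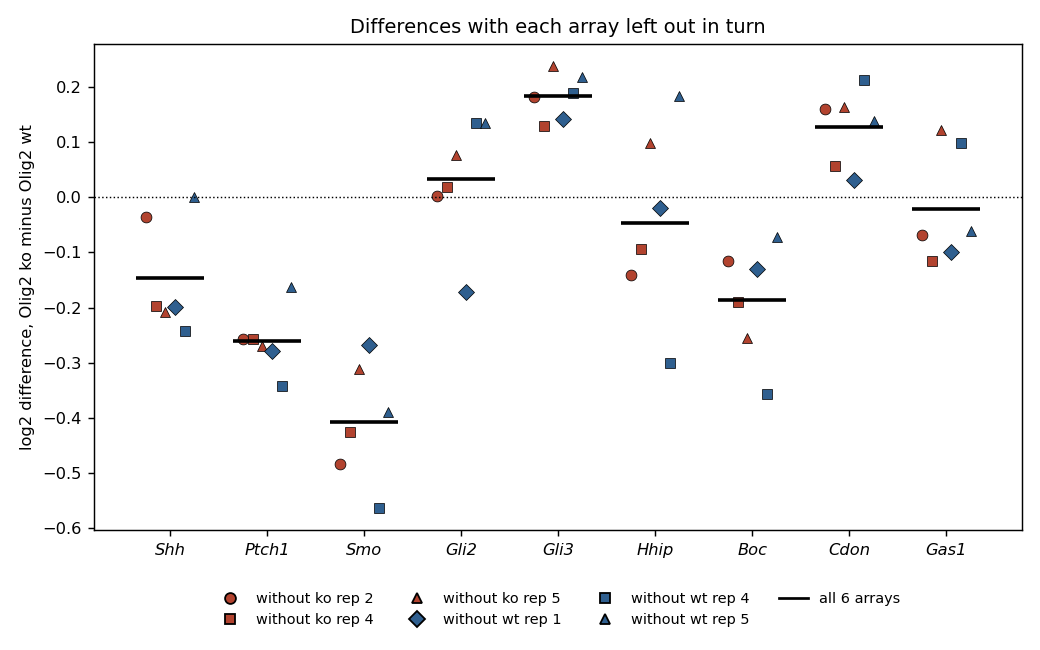
Log2 difference between Olig2 ko and Olig2 wt (y axis) for the brightest kept probe set of 9 hedgehog pathway genes (x axis) with each array left out in turn. Red points leave out a knockout array and blue points a wild-type array, and lines give the value with all 6 arrays. Ptch1, Smo and Boc stay below 0 and Gli3 and Cdon above 0, while Gli2, Hhip and Gas1 cross 0 and Shh reaches it.

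Leaving out knockout replicate 2 and wild-type replicate 4 together gave -0.64 for Smo, -0.34 for Ptch1 and -0.35 for the dimmer Gli2 probe set, with limma's adjusted p between 0.279 and 0.344. These arrays deviated together from their group means over all kept probe sets (r = 0.38). Both were high in Ttr, the choroid plexus transthyretin, at 9.99 on knockout replicate 2 and 10.96 on wild-type replicate 4. The other arrays read 6.42 and 4.85 in knockout pools and 8.36 and 3.46 in wild-type pools. Otx2 was the other kept choroid plexus gene of 7, at 7.91 to 8.47. It did not follow Ttr, with its lowest value on wild-type replicate 4. Kl and Aqp1 were near the floor on all arrays. The part of choroid plexus in the pathway differences was not tested beyond leaving these arrays out.

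The other genes of hedgehog signalling showed no common direction. Of 7 genes for other ligands and for ligand release, 3 were kept, 1 higher and 2 lower in the knockout, with a median log2 difference of -0.09. Hhat, the acyltransferase that attaches palmitate to hedgehog proteins, differed by 0.16, Disp1, which releases them from the cell, by -0.11, and Scube3, a secreted factor of the Scube family that aids release, by -0.09. The ligand genes Dhh and Ihh lay at the array floor on all 6 arrays. None of these genes passed the threshold or had groups apart.

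Of 19 further genes of reception and transduction, 16 were named on the array and kept, with 8 higher and 8 lower and a median log2 difference of 0.0028. The groups were apart for 4, against 16.4% of all kept genes. Of these, 2 read higher (8.45% of all did) and 2 lower (7.96%), and none passed the adjusted threshold. Lrp2, an endocytic receptor that binds Shh in the forebrain neuroepithelium, read 4.83, 4.81 and 4.39 in the knockout, against 5.05, 4.94 and 5.19 in the wild type. Every knockout array was lower, with a log2 difference of -0.38 (limma's adjusted p = 0.511), but a second kept probe set differed by 0.03. Sufu, the inhibitor that binds Gli proteins in the cytoplasm, read 5.76, 5.91 and 5.87 in the knockout, against 6.60, 5.96 and 6.01 in the wild type. The groups were apart by -0.34 on average (limma's adjusted p = 0.521), and wild-type replicate 1 lay above all 5 other arrays by far.

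Gsk3b and Csnk1a1 encode kinases that phosphorylate Gli proteins and also act in Wnt signalling. Gsk3b was 0.86 higher at its brightest probe set, while its 5 other kept probe sets ranged from -1.26 to 0.11. Csnk1a1 was 0.17 higher, with its 3 other kept probe sets from -0.57 to -0.12. Mgrn1, a ubiquitin ligase that lowers Smo in mouse cells, differed by -0.36 with overlapping groups (limma's adjusted p = 0.511), and by -0.23 at a second kept probe set.

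Of 16 genes of the primary cilium, the organelle in which vertebrate hedgehog signalling takes place, 14 were named on the array and kept, of which 7 were higher and 7 lower (median log2 difference -0.01). Ofd1, a gene of the ciliary base, read 7.05, 6.95 and 7.05 in the knockout, against 6.71, 6.67 and 6.84 in the wild type, and was 0.28 higher. Cep290, a gene of the ciliary transition zone, was 0.26 higher, also with groups apart. Ift88, a subunit of the intraflagellar transport machinery, was 0.15 lower than in the wild type with groups apart, and Tulp3, which brings receptors into the cilium, differed by -0.47 with overlapping groups. Each of these 4 had an adjusted p of 0.511 or more in limma. Groups were apart for 3 of the 14 genes, 2 higher and 1 lower, against 16.4% of all kept genes (8.45% higher and 7.96% lower).

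Genes that hedgehog signalling raises in neural tissue did not move together either. Of 11 genes, 6 were kept, 2 higher and 4 lower, with a median log2 difference of -0.14. Nkx2-2, a homeobox gene of ventral progenitors next to the hedgehog source, read 5.69, 6.19 and 6.16 in the knockout, against 6.36, 5.95 and 6.63 in the wild type, a log2 difference of -0.30 (limma's adjusted p = 0.584). Mycn, a proto-oncogene that hedgehog induces in neural precursors, differed by -0.27, with its other kept probe sets at -0.01 and 0.30. Foxa1, a floor plate gene, differed by -0.57 (limma's adjusted p = 0.522), with wild-type replicates 1 and 5 at 4.12 and 3.96 and all other arrays between 2.93 and 3.34. With a filter at log2 above 4 on 3 arrays, Foxa1 dropped out and the list median was -0.005. Ccnd1 and Ccnd2, which encode cyclins, differed by 0.009 and -0.005. Their other kept probe sets ranged from -0.71 to -0.06 and from -0.89 to 0.66. Rasl11b, 0.18 higher in the knockout, was the one gene of the 6 with groups apart, against 16.4% of all kept genes (8.45% higher). Nkx6-1 and Foxa2 were near the floor on all arrays.

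**Figure D4:**
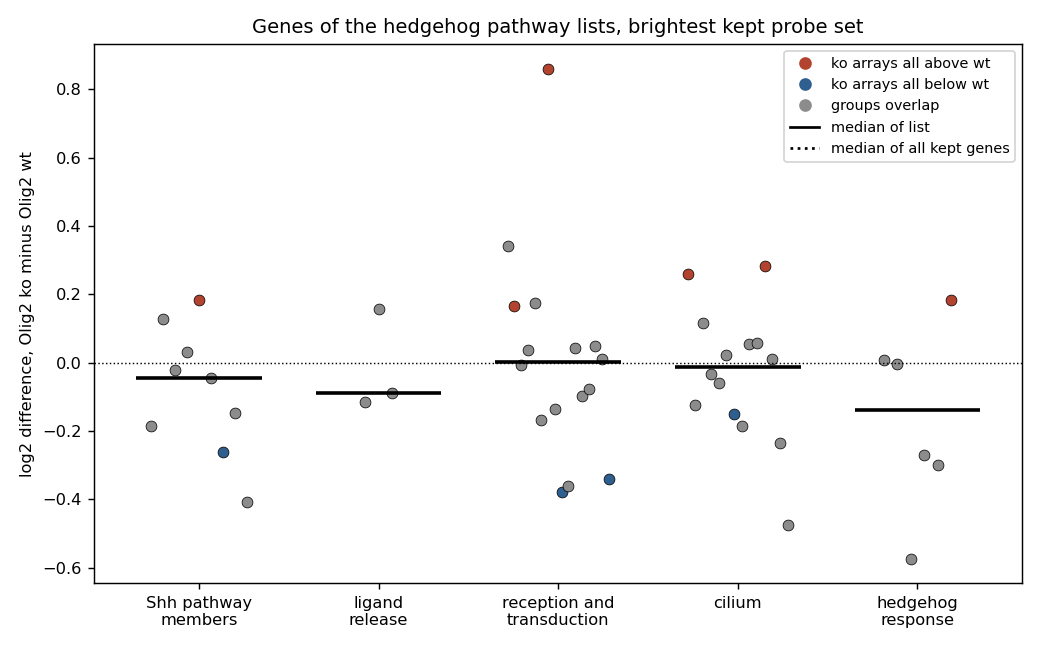
Log2 difference between Olig2 ko and Olig2 wt (y axis) for each gene of 5 hedgehog lists (x axis) at its brightest kept probe set. Red and blue points have groups that do not overlap, solid lines are list medians and the dotted line is the median of all 10630 kept genes. Medians lie between -0.14 for the hedgehog response genes and 0.0028 for reception and transduction.

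Marker genes give a description of the dissected pieces. The mean level of 13 marker lists was compared between the genotypes, and no exact permutation p was below 0.65 after Benjamini-Hochberg adjustment over them. Genes of the medial ganglionic eminence had a mean log2 level of 7.32 to 7.36 in knockout pools and 7.25 to 7.71 in wild-type pools (5 of 9 genes kept, exact permutation p = 0.7, two-sided). Genes listed for the lateral ganglionic eminence included Dlx1 and Dlx2 at 9.97 to 11.47. The list mean lay at 8.68 to 8.75 in knockout pools and 8.65 to 8.86 in wild-type pools (11 of 12 kept, exact permutation p = 0.8). It covers both directions: groups were apart for 3 genes that read higher (8.45% of all kept genes did) and 2 that read lower (7.96%). Genes of the pallium lay at 7.74 to 7.97 in knockout pools and 7.70 to 7.77 in wild-type pools (8 of 10 kept, exact permutation p = 0.2). Of the kept ones, Tbr1 and Neurod6 had groups apart and read higher, against 8.45% of all kept genes. Genes of the hypothalamus, another site of Shh expression, lay at 6.06 to 6.56 in knockout pools and 6.22 to 6.42 in wild-type pools (6 of 12 kept, exact permutation p = 1.0), with Rax, Nr5a1, Hmx3 and Sim2 near the floor.

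Thalamic genes, which in the embryo lie beside the hedgehog source of the zona limitans, were lower in mean level in the knockout. Their mean log2 level was 6.39, 6.70 and 6.82 on the knockout arrays, against 7.27, 7.44 and 7.10 on the wild-type arrays. The exact permutation p was 0.1, two-sided, the smallest the design allows. All 10 genes were kept and read lower, though Lef1 and Slc17a6 differed by only -0.02 and -0.01. The largest differences were -1.38 for Gbx2 and -1.29 for Rora. Groups were apart for 6 of the 10, all lower, against 7.96% of all kept genes, and none passed the adjusted threshold. A second kept Slc17a6 probe set was 0.32 higher, and Foxp2 was also in the lateral ganglionic eminence list. Genes of neuronal differentiation, of which 13 of 14 were lower, lay at 10.01 to 10.04 in knockout pools and 10.10 to 10.37 in wild-type pools (exact permutation p = 0.1), and cell cycle genes at 9.73 to 9.80 in knockout pools and 9.56 to 9.89 in wild-type pools (exact permutation p = 0.8). Hedgehog signalling is read mainly by dividing progenitors, and the part of these lists in the pathway values was not tested.

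Floor plate and ventral midline genes lay at 5.94, 6.06 and 6.11 in the knockout, against 6.64, 5.91 and 6.38 in the wild type, with 3 of 7 genes kept and Foxa2, Lmx1a, Lmx1b and Nkx6-1 near the floor. In this mean, wild-type replicates 1 and 5 were the highest arrays, as they were for Smo, Ptch1 and Gli1 (exact permutation p = 0.4 for the midline list). Of the kept genes, Foxa1 and Spon1 had these highest arrays. Ntn1 did not, at 8.55 on wild-type replicate 5 and 8.64 on knockout replicate 5. Foxa1 was dim and was also in the hedgehog response list. The part of the midline in the differences of Smo, Ptch1 and Gli1 was not tested. Meningeal and mesenchymal cells can also transcribe Gas1, Boc and Gli1, and the mean of genes listed for them was high on 1 array. Their mean level was 7.75 on knockout replicate 2, 5.58 and 5.51 on the other knockout arrays and 6.17, 5.50 and 5.68 on the wild-type arrays (4 of 12 genes kept, exact permutation p = 0.8). On knockout replicate 2, Col3a1 and Postn were high, at 8.10 and 7.93, while Fn1 read 7.64 there and 7.69 on wild-type replicate 1. Pdgfrb was 0.41 higher in the knockout with groups apart (limma's adjusted p = 0.511), as 8.45% of all kept genes were. A second kept Pdgfrb probe set differed by -0.15. Without knockout replicate 2 the difference was -0.07 for Gas1 and -0.12 for Boc. The part of mesenchymal RNA in the levels of Gas1 and Boc was not tested further.

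Genes of endothelium and pericytes lay at 5.05 to 5.23 in knockout pools and 5.03 to 5.22 in wild-type pools (8 of 10 kept, exact permutation p = 1.0). Blood genes lay at 8.28 to 8.79 in knockout pools and 8.01 to 8.74 in wild-type pools (5 of 8 kept, exact permutation p = 0.6). Microglial genes lay at 4.24 to 4.36 in knockout pools and 4.08 to 4.29 in wild-type pools (4 of 8 kept, exact permutation p = 0.3).

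Over the 6 arrays the brightest Shh probe set was followed most closely by Srebf1, a regulator of lipid synthesis genes, Cdc34, a ubiquitin-conjugating enzyme gene, and Abcb6, a transporter gene, each with Pearson's r = 0.99. Of 10609 kept genes, 144 had r above 0.9 with Shh, and all values share these 6 arrays and their normalization. Srebf1 read 6.34, 6.64 and 6.61 in the knockout, against 6.58, 6.54 and 6.94 in the wild type, which follows the low value of Shh on knockout replicate 2 and its high value on wild-type replicate 5. Gli1 had no kept probe set, so no such comparison was made for it.

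Ptch1 and Gli2 held the 2 kept probe sets that were lower on every knockout array, and the 250 bases before their RefSeq start sites are shown for that reason (GRCm38.p6, 5′ to 3′ on the gene's strand). The letters searched were GACCACCCA, the consensus that Gli proteins bind, and its core CCACCC, on both strands. Capitals mark the core.
Gli2, chr1:119053620-119053869, minus strand: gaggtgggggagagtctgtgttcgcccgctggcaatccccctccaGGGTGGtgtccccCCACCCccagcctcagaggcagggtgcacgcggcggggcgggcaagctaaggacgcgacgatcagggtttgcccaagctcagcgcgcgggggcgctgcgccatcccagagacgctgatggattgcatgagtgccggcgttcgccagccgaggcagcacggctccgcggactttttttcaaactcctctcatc
Ptch1, chr13:63565736-63565985, minus strand: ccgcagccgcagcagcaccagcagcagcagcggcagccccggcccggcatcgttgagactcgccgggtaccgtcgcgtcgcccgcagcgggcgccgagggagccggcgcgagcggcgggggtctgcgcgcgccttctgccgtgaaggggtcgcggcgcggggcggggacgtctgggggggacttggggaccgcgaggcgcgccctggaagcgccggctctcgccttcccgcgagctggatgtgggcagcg
The core occurred 2 times before Gli2 and 0 times before Ptch1 in these windows. Of the 7 pathway genes with a promoter in the table, Gli2, Gli3, Hhip and Smo held it, against 28.1% of 32851 promoters. The full consensus was in none of the 7 and in 0.225% of all promoters.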

How the data were processed

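RNA of ventral forebrain was labelled from 6 ug per array, per the labels' protocols. The values are the log2 expression values that the authors deposited, made with GCOS, MAS 5.0 and GCRMA (background correction by probe sequence, quantile normalization), per the series design text and the submitters' processing notes. The floor that GCRMA leaves compresses differences of dim genes, and quantile normalization hides changes in total RNA. Of 45037 non-control probe sets, 34945 had 1 symbol in the platform annotation, 932 had several and 9160 were unnamed here. Gene IDs matched RefSeq (GRCm38.p6) for 34741 and changed 0 symbols. Kept probe sets (22565) were compared with limma 3.58.1 in R 4.3.3 (lmFit, eBayes, two-sided, Benjamini-Hochberg over all of them, threshold 0.05, no block). For each gene the kept probe set brightest on average over the 6 arrays was used.

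The members and the lists were chosen with earlier results of these data known. Named were all members, Olig2, Olig1, up to 4 genes of lowest p per pathway list, genes of small counts and the 3 genes most like Shh. Single marker genes and Nkx2-1, Nkx6-1, Foxa2, Ccnd1 and Ccnd2 were named after their values were seen. Marker lists were compared by exact permutation over arrays. Alternatives were other filters, normalizations, variance models, array weights, a replicate block, probe set means and arrays left out. On simulated data (22565 probe sets, 3 against 3) limma called 14% of changes of 0.5, 50% of 1 and 92% of 2 on the log2 scale. It also called 10 unchanged probe sets. The simulation drew independent noise for each probe set and changed only brighter ones. Some real arrays deviated together and many pathway probe sets were dim, so these rates may not apply to the real values.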

Additional observations from a re-analysis of the deposited data

How the results depend on the processing

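No pathway probe set and no probe set at all had an adjusted p below 0.05 in limma under any of the 14 alternatives fitted, and Olig2 kept its direction in all of them, without passing. Arrays of both genotypes share the numbers 4 and 5. The numbers are not said to mark a litter or day, so they were not taken as pairs. Same-numbered arrays deviated from their group means with r = -0.29 and 0.32, which with so few arrays cannot decide whether they were paired. With the replicate block, 1 pathway probe set had an unadjusted p below 0.05 (5%, against 8.93% of all) and Gli2 turned to -0.20 at its brightest probe set. That count was also 1 with no filter (3.85%, against 4.32%), with a filter at log2 above 4 (5.88%, against 10%) and with median centring (5%, against 9.71%). It was 2 with quantile normalization again (10%, against 9.65%) and with trended robust variance (10%, against 9.52%). It was 3 with array weights (15%, against 15.5%) and without knockout replicate 2 and wild-type replicate 4 (15%, against 14.5%). The array weight was lowest for wild-type replicate 1 (0.35) and highest for wild-type replicate 5 (2.26). With single arrays left out the count ranged from 1 to 5 (5% to 25%, against 4.97% to 15.5%). Pathway probe sets with groups apart numbered 5 with median centring (25%, against 18.6% of all), 3 to 8 with single arrays left out (15% to 40%, against 22.2% to 34.7%) and 12 of 20 (60%, against 48.9% of all) without knockout replicate 2 and wild-type replicate 4. Over all probe sets, 3491 had an unadjusted p below 0.05 with array weights, 3276 without those 2 arrays and 1121 to 3490 with single arrays left out, against 2121. Groups apart numbered 11032 without those 2 arrays and 5011 to 7830 with single arrays left out, against 3658, since fewer arrays overlap less often.

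Ptch1, Smo, Gli3, Boc and Cdon kept their direction in every alternative. Shh turned to 0.081 in the mean of its probe sets and ranged from -0.24 to 0.00021 with single arrays left out. Gli2 turned to -0.13 with array weights and -0.20 in the mean of its probe sets, and ranged from -0.17 to 0.13 with single arrays left out. Hhip turned to 0.18 in the mean of its probe sets and ranged from -0.40 to 0.18 with arrays left out. Gas1 ranged from -0.12 to 0.12 and was 0.051 without knockout replicate 2 and wild-type replicate 4. The cause of these turns was not tested. Dim probe sets of Gli1 and Hhip limit what these arrays can show.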
